A study of Saccharomyces cerevisiae with 12 samples.

Results

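The 31 genes described here encode the sphingolipid pathway of Saccharomyces cerevisiae, with its entry enzyme, the elongases that make its very long fatty acids, ceramide synthesis and breakdown, the complex inositol sphingolipids and the turnover and export of long-chain bases. They were chosen by name. Each of the 31 had exactly 1 probe set whose annotation named that gene alone, so all 31 were measured, among 9335 probe sets on the array and 9275 tested. The strains compared differ in TOR2. One is MU, the strain SH121, with a temperature-sensitive TOR2 allele that loses only the function TOR2 does not share with TOR1. The other is WT, its isogenic counterpart SH100, which has a working TOR2. Both grew in YPD at 25 °C (0 h) or after a shift to 37 °C for 2 or 6 h. Strain and time gave 6 groups, and each held 2 cultures grown independently (A and B), so there were 12 arrays. WT was shifted too, so MU against WT at the same hour holds the temperature equal, while a change from 0 h in either strain joins heat and time at 37 °C, which cannot be told apart. MU is 1 mutant strain with 1 allele.

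Sphingolipids are made from serine and palmitoyl-CoA by serine palmitoyltransferase in the endoplasmic reticulum, and the long-chain bases that follow are joined to very long fatty acids to give ceramides, which the Golgi turns into inositol sphingolipids of the plasma membrane. The TOR2-unique function belongs to the kinase complex TORC2. Through the kinase Ypk1 it acts on Orm1 and Orm2, which hold serine palmitoyltransferase back, and on the ceramide synthase subunits Lag1 and Lac1. That control is known at the level of protein phosphorylation. The arrays measured messenger RNA only, as a signal in arbitrary units per probe set, which can be compared between arrays but not between genes.

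Genes of the pathway changed with the shift in each strain. The long-chain base exporter RSB1 and the ceramidase YDC1 were higher at 2 and 6 h in MU and in WT, the ceramidase YPC1 and the ceramide hydroxylase SCS7 were higher at 6 h in both, and the serine palmitoyltransferase subunit LCB2 and the reductase TSC10 were lower at 6 h in both. At an adjusted p under 0.05, no gene of the 31 was called between MU and WT at any hour, and none in the difference between the changes of the 2 strains. Of the 31 genes, 11 were called in at least 1 of the 4 comparisons with 0 h, 2 in all 4 (RSB1 and YDC1) and 20 in none. These counts over the 4 comparisons were not made for all probe sets, so they describe the 31 genes only. Shares of all probe sets in each single comparison are given below. A called gene is one with an adjusted p under 0.05 from limma across all 9275 probe sets, with Benjamini-Hochberg adjustment, and every called change below also had arrays that did not overlap between the groups compared.

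**Figure D1:**
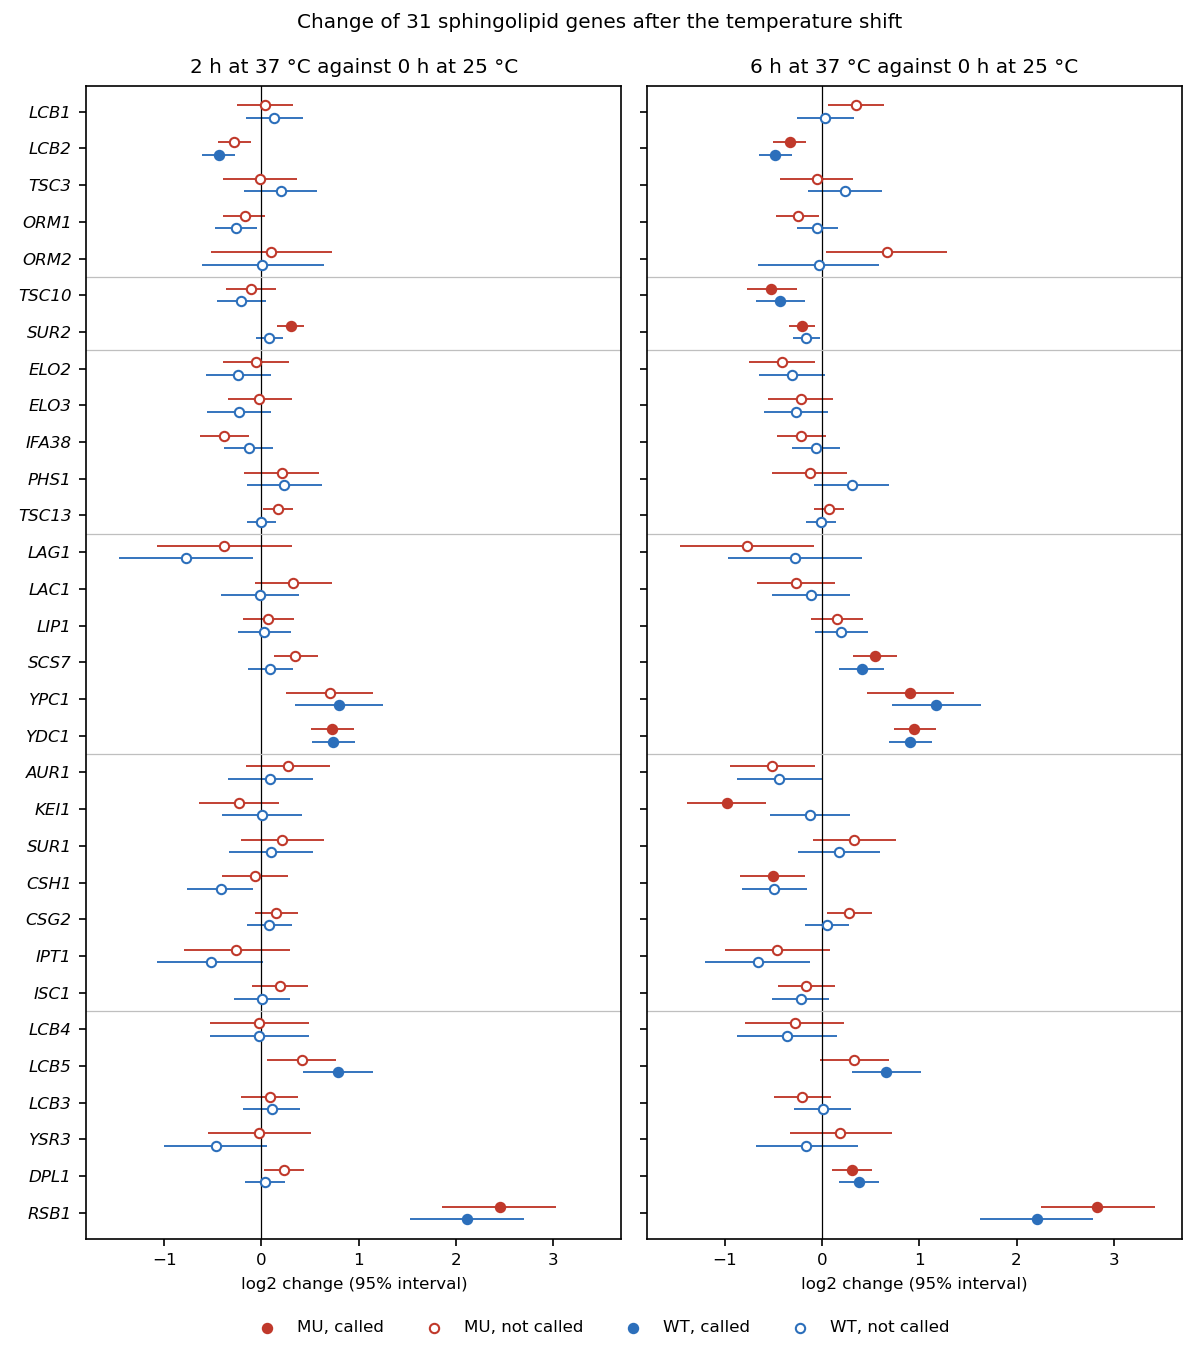
Log2 change of each of the 31 genes at 2 h (left) and 6 h (right) against 0 h, with MU above WT in each row, the 95% interval as a line, and filled points for an adjusted p under 0.05. Grey lines part the steps of the pathway. RSB1 stands far to the right in both panels, at 2.83 in MU and 2.21 in WT at 6 h, and the elongation genes from ELO2 to TSC13 have open points only.

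In MU at 2 h, 3 of the 31 genes (9.68%) were higher and none lower, against 4.88% of all probe sets higher and 3.11% lower. In MU at 6 h, 5 were higher and 5 lower (16.1% each), against 10.8% and 11.4% of all probe sets. In WT at 2 h, 4 were higher (12.9%) and 1 lower (3.23%), against 5.38% and 3.28%. In WT at 6 h, 6 were higher (19.4%) and 2 lower (6.45%), against 9.83% and 9.55%. The median change over the 31 genes was 0.09 at 2 h and -0.16 at 6 h in MU, and 0.01 at 2 h and -0.05 at 6 h in WT, where the medians over all probe sets lay between -0.06 and -0.02. Between 2 and 6 h, 1 gene was lower in MU (SUR2) and none higher, against 0.334% and 0.291% of all probe sets, and 0 were called in WT, where 0.0539% of all probe sets were higher and 0.0108% lower, 4 of the 31 (and 11.5% of all probe sets) had an unadjusted p under 0.05 in limma, and rank difference analysis selected none. The changes at 2 h and 6 h of a strain share its 0 h arrays. The shift itself was visible in both strains, as the heat and stress genes HSP12, HSP26, HSP104 and SSA4 were all called higher at 2 and 6 h in both strains. The median signal was 72 to 75.8 per array, duplicates correlated at 0.97 to 0.978 across probe sets, none of the 3 mating type a and 4 mating type alpha genes measured was called between MU and WT. TOR2 itself read 178.4 and 190.6 at 0 h, 246.1 and 331.6 at 2 h, and 306.6 and 267.0 at 6 h in MU, and 260.3 and 235.9, 307.9 and 259.5, and 268.9 and 351.1 in WT. The MU arrays at 0 h lay below all WT arrays, with a MU minus WT difference of -0.44 at 0 h (SE 0.18, adjusted p = 1), and a signal does not tell a temperature-sensitive allele from a working one.

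The largest changes were at the export of long-chain bases. RSB1 (YOR049C) encodes a plasma membrane protein that moves long-chain bases outward. On the MU arrays A and B it read 36.4 and 38.2 at 0 h, 249.3 and 169.1 at 2 h, and 236.5 and 302.3 at 6 h. On the WT arrays it read 47.8 and 49.0 at 0 h, 194.4 and 245.0 at 2 h, and 287.1 and 187.8 at 6 h. All 8 arrays at 37 °C were above all 4 at 25 °C. The change in MU was 2.45 on the log2 scale at 2 h (SE 0.25, 5.46-fold, adjusted p = 0.00174) and 2.83 at 6 h (SE 0.25, 7.13-fold, adjusted p = 0.000404). In WT it was 2.11 at 2 h (SE 0.25, 4.32-fold, adjusted p = 0.00318) and 2.21 at 6 h (SE 0.25, 4.61-fold, adjusted p = 0.00137). The difference between the strains' changes at 6 h, MU minus WT, was 0.63 (95% interval -0.20 to 1.46, adjusted p = 0.951). Over the limma settings tried, the lowest change was 2.05 at 2 h and 2.41 at 6 h in MU. In WT it was 1.81 and 1.90. The 2 h and 6 h levels overlapped within each strain, and duplicates were wide there, with array A above B in MU at 2 h and in WT at 6 h and below it in the other 2 groups.

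Both ceramidases, which split ceramide back into a long-chain base and a fatty acid, were higher after the shift. YDC1 (YPL087W) read 334.2 and 320.7 at 0 h, 572.7 and 515.6 at 2 h, and 649.1 and 621.0 at 6 h in MU. In WT it read 331.6 and 312.3 at 0 h, 508.9 and 594.9 at 2 h, and 634.3 and 594.6 at 6 h. The 2 strains ran side by side at each hour. Its log2 change was 0.73 at 2 h and 0.95 at 6 h in MU (SE 0.09 each, adjusted p = 0.00461 and 0.000643), against 0.74 and 0.91 in WT (SE 0.09 each, adjusted p = 0.00404 and 0.00091). The interval of the MU minus WT difference in these changes was -0.32 to 0.30 at 2 h and -0.26 to 0.35 at 6 h.

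YPC1 (YBR183W), the paralogue of YDC1, read 141.6 and 147.4 at 0 h, 232.3 and 240.4 at 2 h, and 286.7 and 258.9 at 6 h in MU. In WT it read 140.4 and 153.9 at 0 h, 220.7 and 315.0 at 2 h, and 288.5 and 397.6 at 6 h, with the B arrays above the A arrays after the shift. It was higher at 6 h in both strains, by 0.91 in MU (SE 0.20, 1.88-fold, adjusted p = 0.0148) and by 1.17 in WT (SE 0.20, 2.26-fold, adjusted p = 0.00628). At 2 h it was called in WT, with a change of 0.80 (adjusted p = 0.0457), while its change of 0.70 in MU had an adjusted p of 0.071. That MU change was called with the dimmest 25% of probe sets left out and by rank difference analysis. With each of the 12 arrays left out in turn, the WT call at 2 h held only without WT 2 h A, WT 6 h A or WT 6 h B, and without WT 2 h B the change was 0.54 with an adjusted p of 0.183. The MU call at 6 h was lost without any of the 4 MU arrays at 0 h and 6 h (adjusted p = 0.0512 to 0.0759).

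**Figure D2:**
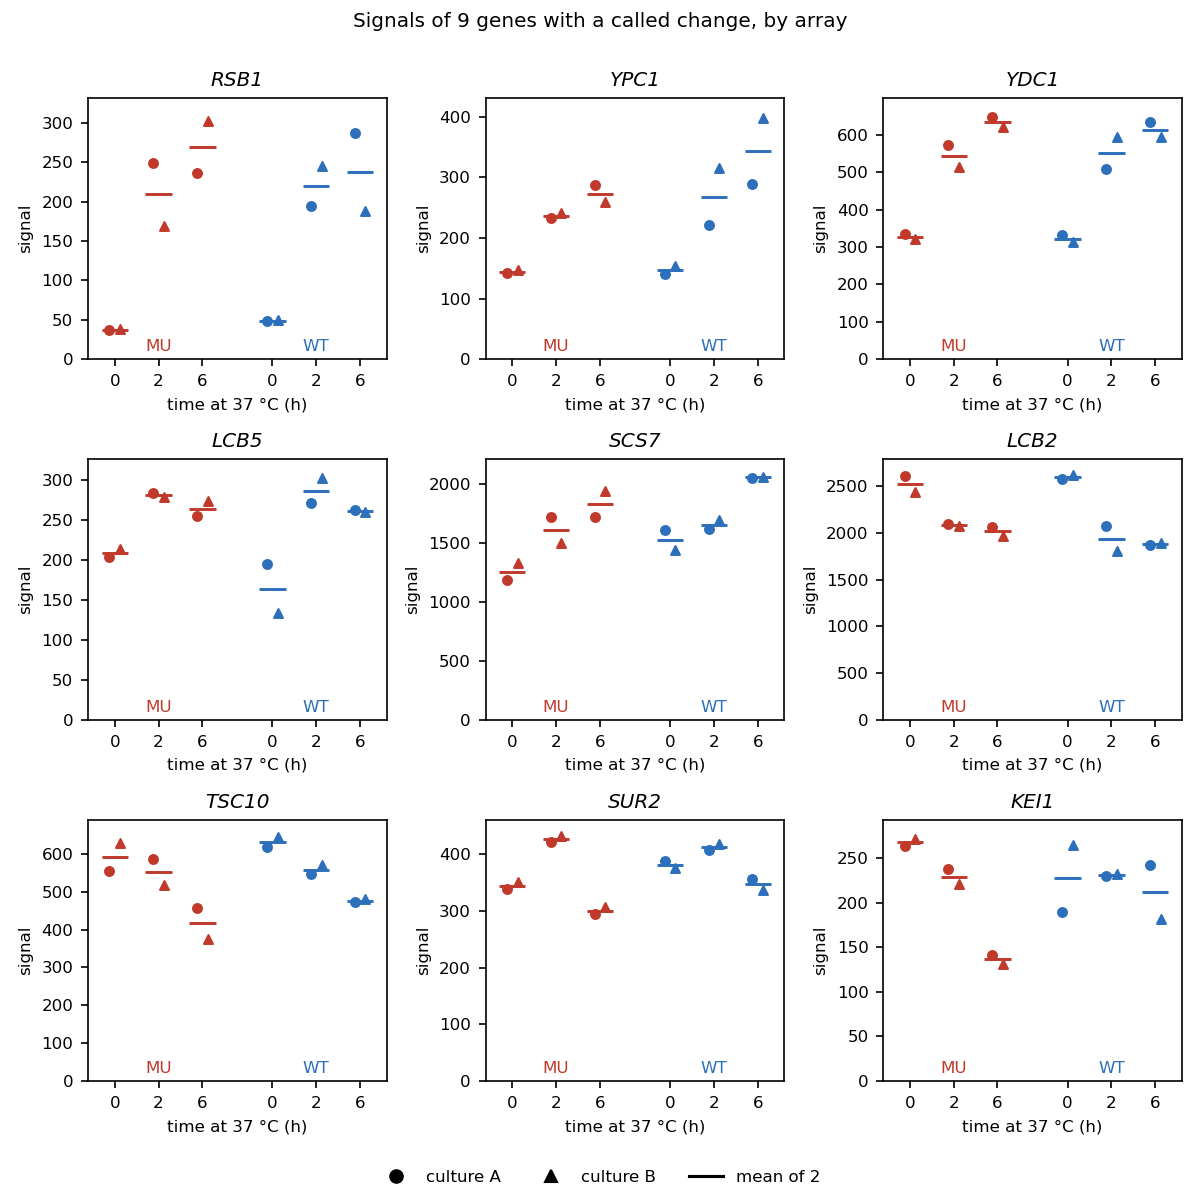
Deposited signal of 9 genes with a called change on every array, by time at 37 °C, MU in red on the left of each panel and WT in blue on the right, with circles for culture A, triangles for culture B and bars for the mean of 2. RSB1, YPC1 and YDC1 lie higher at 2 and 6 h than at 0 h in both strains, and KEI1 lies at 141.7 and 131.0 in MU at 6 h against 181.9 or more on the other 10 arrays.

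The remaining genes of ceramide formation did not move as one. SCS7 (YMR272C) encodes the hydroxylase that acts on the fatty acid of ceramide, and it read 1184.1 and 1327.1 at 0 h, 1720.7 and 1498.9 at 2 h, and 1720.7 and 1942.4 at 6 h in MU. In WT it read 1607.6 and 1443.5 at 0 h, 1617.6 and 1693.1 at 2 h, and 2052.5 and 2061.9 at 6 h. SCS7 was higher at 6 h by 0.55 in MU (SE 0.10, adjusted p = 0.00744) and by 0.41 in WT (SE 0.10, adjusted p = 0.0249). At 2 h its change was 0.35 in MU (adjusted p = 0.0702) and 0.09 in WT (adjusted p = 0.627). The MU call at 6 h was lost without MU 0 h A (adjusted p = 0.0529), and the WT call without any of the 4 WT arrays at 0 h and 6 h (adjusted p = 0.0575 to 0.13).

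Ceramide synthase joins a long-chain base to a very long fatty acid, with LAG1 (YHL003C) and LAC1 (YKL008C) as alternative catalytic subunits and LIP1 (YMR298W) as a small subunit needed by both. None of the 3 was called in any comparison, and 3 genes are too few to set against the shares of all probe sets given above. LAG1 was dim, reading 83.6 and 63.1 at 0 h, 60.9 and 52.0 at 2 h, and 52.9 and 34.7 at 6 h in MU, and 59.4 and 93.3, 40.2 and 52.0, and 68.1 and 58.8 at the same hours in WT. Its lowest group was 6 h in MU and 2 h in WT, and its change was -0.77 in each (SE 0.30 each, adjusted p = 0.103 in MU at 6 h and 0.156 in WT at 2 h). LAC1 read 260.9 and 235.9, 313.4 and 313.5, and 238.5 and 177.7 at 0, 2 and 6 h in MU, and 291.1 and 234.3, 293.3 and 239.0, and 266.0 and 228.1 in WT. The MU arrays of LAC1 lay higher at 2 h than at 0 h, by 0.33 (95% interval -0.07 to 0.73), and lower at 6 h than at 2 h, by -0.60 (adjusted p = 0.133). LIP1 changed by 0.03 to 0.20 over the 4 comparisons with 0 h. At 6 h the MU minus WT difference was -0.55 for LAG1 (95% interval -1.24 to 0.13, adjusted p = 0.655) and -0.25 for LAC1 (95% interval -0.65 to 0.15, adjusted p = 0.704).

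At the entry of the pathway, 1 of 5 genes was called, lower in MU at 6 h and in WT at 2 h and 6 h. Of all probe sets, 11.4%, 3.28% and 9.55% were lower in these comparisons, so 1 of 5 does not set this step apart. LCB2 (YDR062W), the catalytic subunit of serine palmitoyltransferase, read 2609.0 and 2439.6 at 0 h, 2097.5 and 2069.3 at 2 h, and 2062.5 and 1964.5 at 6 h in MU. In WT it read 2578.4 and 2613.8 at 0 h, 2069.9 and 1803.5 at 2 h, and 1868.6 and 1889.7 at 6 h. All 8 arrays at 37 °C were below all 4 at 25 °C. LCB2 was lower at 6 h in MU by a log2 change of -0.33 (SE 0.07, adjusted p = 0.018) and in WT by -0.48 (SE 0.07, adjusted p = 0.00466), and at 2 h in WT by -0.44 (adjusted p = 0.0123). Rank difference analysis selected it in WT at 6 h only. In MU at 2 h the change was -0.28 with an adjusted p of 0.0635. The MU call at 6 h was lost without MU 0 h A (adjusted p = 0.106) or MU 6 h B (adjusted p = 0.0832), and the WT call at 2 h without WT 0 h A (0.0641) or WT 0 h B (0.0725).

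LCB1 (YMR296C), the other large subunit, did not follow LCB2. It read 1180.7 and 1282.6, 1214.1 and 1322.5, and 1420.2 and 1724.6 at 0, 2 and 6 h in MU, and 1394.1 and 1321.5, 1613.0 and 1422.4, and 1554.5 and 1270.5 in WT. Its change at 6 h was 0.35 in MU (95% interval 0.06 to 0.64, adjusted p = 0.0866) and 0.03 in WT (95% interval -0.26 to 0.33, adjusted p = 0.906). TSC3 (YBR058C-A), the small subunit that activates the enzyme, changed by -0.05 to 0.24 over the 4 comparisons with 0 h, and none was called.

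ORM1 and ORM2 encode the paired inhibitors of serine palmitoyltransferase that TORC2 and Ypk1 act on, and neither was called. ORM1 (YGR038W) read 714.2 and 683.9, 672.7 and 577.6, and 594.1 and 585.9 at 0, 2 and 6 h in MU, and 723.4 and 642.1, 585.3 and 577.5, and 634.9 and 709.1 in WT. ORM2 (YLR350W) read 1294.6 and 1346.2, 1558.5 and 1297.2, and 1604.2 and 2731.9 in MU, and 1460.0 and 1368.5, 1378.9 and 1545.8, and 1758.8 and 1117.7 in WT. The 2 paralogues lay in opposite directions in MU at 6 h, where ORM1 changed by -0.25 (95% interval -0.47 to -0.03, adjusted p = 0.0938) and ORM2 by 0.67 (95% interval 0.04 to 1.29, adjusted p = 0.118). The ORM2 value rested on culture B of MU, whose signal was 1.7 times that of culture A, the widest gap between duplicates of any of the 31 genes on the log2 scale (0.77). It was called higher without MU 6 h A and by rank difference analysis. In WT at 6 h the change was -0.05 for ORM1 and -0.03 for ORM2. The WT duplicates of ORM2 at 6 h were also wide, with culture A above B by a log2 gap of 0.65. The MU minus WT difference at 6 h was 0.58 for ORM2 (95% interval -0.05 to 1.21, adjusted p = 0.596, arrays overlapping) and -0.18 for ORM1 (95% interval -0.40 to 0.04, adjusted p = 0.643).

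**Figure D3:**
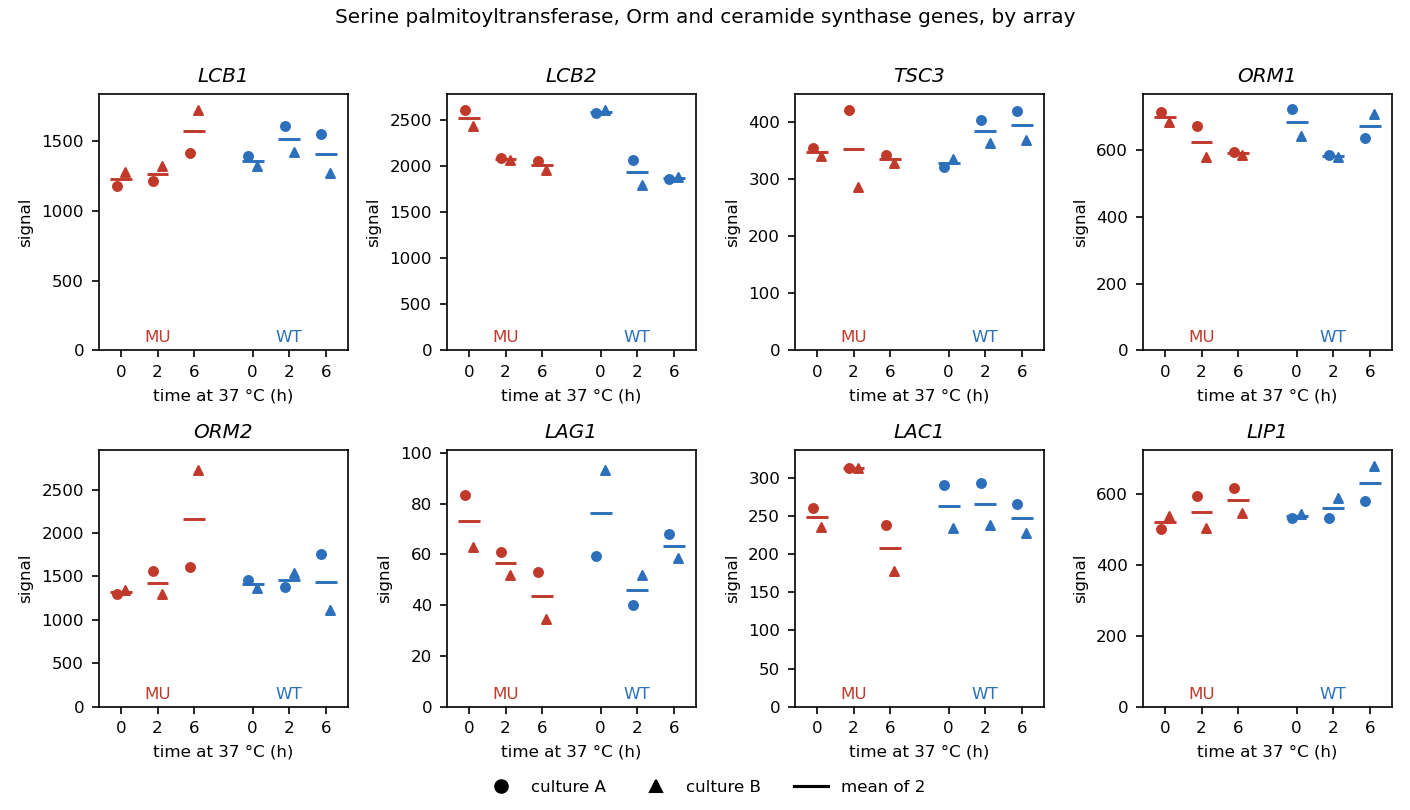
Deposited signal on every array of the serine palmitoyltransferase genes LCB1, LCB2 and TSC3, the inhibitors ORM1 and ORM2 and the ceramide synthase genes LAG1, LAC1 and LIP1, by time at 37 °C, MU on the left in red and WT on the right in blue, with circles for culture A, triangles for culture B and bars for the mean of 2. LCB2 lies lower at 37 °C on all 8 arrays, and ORM2 in MU at 6 h spreads between 1604.2 and 2731.9.

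The next 2 enzymes make the long-chain bases. TSC10 (YBR265W), which reduces 3-ketosphinganine, read 554.1 and 629.6, 586.3 and 517.7, and 457.9 and 375.8 at 0, 2 and 6 h in MU, and 619.0 and 642.9, 546.1 and 569.8, and 472.8 and 480.1 in WT. It was lower at 6 h in both strains, by -0.52 in MU (SE 0.11, adjusted p = 0.0142) and by -0.43 in WT (SE 0.11, adjusted p = 0.0318). The MU call was lost without MU 0 h B (adjusted p = 0.0854) or MU 6 h B (0.064), and the WT call without any of the 4 WT arrays at 0 h and 6 h (0.0901 to 0.139). Rank difference analysis selected it in neither strain.

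SUR2 (YDR297W), which hydroxylates the base to give phytosphingosine, went up and then down in MU. It read 338.7 and 350.9 at 0 h, 422.0 and 431.5 at 2 h, and 293.8 and 306.4 at 6 h in MU, and 387.8 and 375.7, 407.7 and 417.7, and 357.1 and 337.1 in WT, and its duplicates lay close in all 6 groups. In MU it was higher at 2 h by 0.30 (SE 0.06, adjusted p = 0.0242), lower at 6 h than at 0 h by -0.20 (SE 0.06, adjusted p = 0.0454), and lower at 6 h than at 2 h by -0.51 (SE 0.06, adjusted p = 0.0245). The same differences in WT were 0.08, -0.16 and -0.24, none of them called (adjusted p = 0.445, 0.0997 and 0.212). That the strains differ in this was not shown, since the MU minus WT difference in the 2 h change was 0.22 (SE 0.09, 95% interval 0.02 to 0.42, unadjusted p = 0.0327 in limma, and 1 after adjustment over all probe sets). The MU calls of SUR2 were among the least steady. At 2 h the call was lost without any of the 4 MU arrays at 0 h and 2 h (adjusted p = 0.08 to 0.126), at 6 h against 0 h without any array but WT 6 h A or WT 6 h B (up to 0.174 without MU 0 h B), and at 6 h against 2 h without any of the MU and WT arrays at 0 h or the MU arrays at 2 h (0.0582 to 0.0824).

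Very long fatty acids for ceramide are made by a cycle of 4 steps, and none of its 5 genes was called in any comparison. Of all probe sets, 3.11% to 11.4% were called in a given direction against 0 h, so none of 5 does not set this step apart. The elongases ELO2 (YCR034W) and ELO3 (YLR372W) carry out the first step. ELO2 read 1111.4 and 1180.6, 1096.8 and 1113.2, and 1008.9 and 742.2 at 0, 2 and 6 h in MU, and 1192.7 and 1173.6, 990.5 and 1051.2, and 1073.5 and 868.6 in WT. ELO3 read 2642.8 and 2377.5, 2396.5 and 2580.3, and 2328.3 and 1985.1 in MU, and 2694.5 and 2426.4, 2437.4 and 2006.5, and 2385.2 and 1910.5 in WT. Both lay below 0 h at 6 h in each strain, ELO2 by -0.41 in MU and -0.31 in WT (adjusted p = 0.0806 and 0.177), and ELO3 by -0.22 in MU and -0.27 in WT (adjusted p = 0.313 and 0.223). The MU change of ELO2 was called with the dimmest 25% of probe sets left out and without MU 6 h A. The ketoreductase IFA38 (YBR159W), the dehydratase PHS1 (YJL097W) and the enoyl reductase TSC13 (YDL015C), which complete the cycle, changed by -0.38 to 0.31 over the 4 comparisons with 0 h, the lowest for IFA38 in MU at 2 h (adjusted p = 0.0785) and the highest for PHS1 in WT at 6 h (adjusted p = 0.245).

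Among the 7 genes of the complex sphingolipids, 2 were called, both lower in MU at 6 h, where 11.4% of all probe sets were lower. With 7 genes, that count does not set this step apart from all probe sets. KEI1 (YDR367W) encodes the partner subunit of AUR1 in inositol phosphorylceramide synthase, which transfers inositol phosphate to ceramide. It read 263.3 and 271.6 at 0 h, 237.7 and 220.5 at 2 h, and 141.7 and 131.0 at 6 h in MU. In WT it read 189.4 and 265.1 at 0 h, 230.2 and 232.0 at 2 h, and 242.6 and 181.9 at 6 h. The MU arrays at 6 h were below the other 10 arrays. KEI1 was lower in MU at 6 h by -0.98 (SE 0.18, 95% interval -1.39 to -0.57, 1.97-fold lower, adjusted p = 0.00773), and the call held without any 1 of the 12 arrays (adjusted p at most 0.0474). In WT at 6 h the change was -0.12 (95% interval -0.53 to 0.29, adjusted p = 0.7). The difference between those changes, MU minus WT, was -0.86 (SE 0.25, 95% interval -1.44 to -0.28, unadjusted p = 0.00904), and after adjustment over all probe sets p was 0.951, so it did not pass. Culture A of WT at 0 h and culture B of WT at 6 h were the low arrays of their pairs.

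AUR1 (YKL004W), the catalytic subunit of the same enzyme, read 865.4 and 952.7, 1093.9 and 1105.0, and 766.9 and 534.8 at 0, 2 and 6 h in MU, and 1085.2 and 895.8, 1117.3 and 1028.9, and 847.7 and 647.1 in WT. It lay lowest at 6 h in both strains, by -0.51 in MU and -0.44 in WT (adjusted p = 0.0907 and 0.146), and its MU change was called with the dimmest 25% of probe sets left out and without MU 6 h A. So both subunits lay below 0 h in MU at 6 h, while in WT the arrays of AUR1 were all below 0 h and those of KEI1 overlapped it.

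The mannosyl step is carried out by SUR1 (YPL057C) or its paralogue CSH1 (YBR161W), each with the partner CSG2 (YBR036C). SUR1 read 150.3 and 187.6, 193.5 and 198.3, and 194.3 and 232.4 at 0, 2 and 6 h in MU, and 191.8 and 180.9, 199.8 and 210.0, and 260.2 and 177.5 in WT. CSH1 read 92.6 and 112.7, 98.7 and 97.9, and 81.1 and 64.9 in MU, and 117.5 and 112.2, 95.1 and 82.4, and 85.3 and 83.2 in WT. The paralogues lay on opposite sides of 0 at 6 h in both strains. CSH1 was called lower in MU at 6 h, by -0.50 (SE 0.14, adjusted p = 0.0422), and its change of -0.49 in WT missed the threshold (adjusted p = 0.0515), so the 2 strains had nearly equal changes on either side of it. With the dimmest 25% of probe sets left out, or without either MU array at 6 h, the WT change was called too. The call held only without WT 2 h A, WT 2 h B or MU 6 h A, and was lost without any other array (adjusted p up to 0.201, with a change of -0.37, without MU 0 h B). With cultures A and B fitted as a replicate block its adjusted p was 0.0549. SUR1 changed by 0.33 in MU and 0.18 in WT at 6 h (adjusted p = 0.236 and 0.55), and CSG2 by 0.28 and 0.05 (adjusted p = 0.0782 and 0.765).

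The last addition of inositol phosphate is made by IPT1 (YDR072C), and ISC1 (YER019W), a phospholipase, breaks the complex sphingolipids down again to ceramide. IPT1 read 207.9 and 213.9, 162.3 and 194.3, and 136.3 and 174.2 at 0, 2 and 6 h in MU, and 215.6 and 187.7, 143.7 and 144.6, and 169.6 and 100.4 in WT. All 8 arrays at 37 °C were below their own strain's 0 h arrays, but no change was called (at 6 h -0.46 in MU, adjusted p = 0.206, and -0.66 in WT, adjusted p = 0.0892). The WT change at 6 h was called with the dimmest 25% of probe sets left out, by rank difference analysis, and without WT 6 h A. ISC1 changed by -0.22 to 0.19 over the 4 comparisons with 0 h, and by -0.35 in MU and -0.23 in WT between 2 and 6 h, none of it called.

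Long-chain bases are phosphorylated by LCB4 (YOR171C) and LCB5 (YLR260W), and the phosphates are removed by LCB3 (YJL134W) and YSR3 (YKR053C) while the lyase DPL1 (YDR294C) cleaves them. LCB5 read 203.6 and 214.0, 283.0 and 278.8, and 254.5 and 273.3 at 0, 2 and 6 h in MU, and 194.3 and 133.0, 270.7 and 301.7, and 261.6 and 259.3 in WT. The 2 strains lay close together at 37 °C, and the low array was culture B of WT at 0 h. LCB5 was higher in WT by 0.79 at 2 h (SE 0.15, adjusted p = 0.0211) and by 0.66 at 6 h (SE 0.15, adjusted p = 0.0227), against 0.42 and 0.33 in MU (adjusted p = 0.147 and 0.166). Without WT 0 h B the WT change was 0.52 at 2 h (adjusted p = 0.0458) and 0.40 at 6 h (adjusted p = 0.0583). The MU changes at both hours were called without either WT array at 0 h, and that at 2 h also by rank difference analysis. The WT call at 6 h was also lost without either WT array at 6 h (adjusted p = 0.086 and 0.0743), and that at 2 h without either WT array at 2 h (0.0523 and 0.111). LCB4, the paralogue, was dim at 34.9 to 59.4 over the 12 arrays and changed by -0.36 to -0.02 against 0 h, none of it called.

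DPL1 read 496.8 and 540.4, 600.1 and 621.7, and 655.0 and 630.8 at 0, 2 and 6 h in MU, and 561.2 and 536.5, 579.7 and 571.0, and 666.7 and 797.2 in WT. It was higher at 6 h by 0.31 in MU (SE 0.09, adjusted p = 0.0426) and by 0.38 in WT (SE 0.09, adjusted p = 0.0227). The MU call was lost without any array but WT 6 h A or WT 6 h B (adjusted p up to 0.196, with a change of 0.25, without MU 0 h A). The WT call was lost without WT 0 h A (0.0788), WT 0 h B (0.11) or WT 6 h B (0.073, with a change of 0.25). Rank difference analysis selected it in neither strain. The phosphatases LCB3 and YSR3 were not called in any comparison. LCB3 read 262.5 to 339.9 on MU arrays and 267.9 to 361.4 on WT arrays, and YSR3 read 87.4 to 144.1 on MU arrays and 87.3 to 138.1 on WT arrays.

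At 6 h, most calls among the 31 genes were found in both strains. At 2 h, RSB1 and YDC1 were called higher in both strains, SUR2 in MU and LCB5 and YPC1 in WT, and LCB2 was called lower in WT. At 6 h, DPL1, RSB1, SCS7, YDC1 and YPC1 were called higher in both, so all 5 genes higher in MU and 5 of the 6 in WT, where LCB5 was the other. LCB2 and TSC10 were called lower in both at 6 h, which is 2 of the 5 lower in MU and both of those lower in WT, and CSH1, KEI1 and SUR2 in MU. Across the 31 genes, which are not independent of each other, the changes of the strains correlated at r = 0.92 (Spearman rho 0.80) at 2 h and r = 0.90 (rho 0.85) at 6 h, and without RSB1 at r = 0.83 (rho 0.77) and r = 0.79 (rho 0.83). The sign was the same for 28 of 31 genes at 2 h and for 25 of 31 at 6 h. The strains' changes share no array, but all arrays share their processing. Shared calls, correlations and equal signs were not computed over all probe sets. They describe the 31 genes only and do not set them apart, since both strains had the same shift.

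The direct comparison of MU with WT at 2 and 6 h asked whether losing the TOR2-unique function altered these genes. At 0 h the cultures had not been shifted, so with a temperature-sensitive allele that comparison does not test the loss. Of the 31 genes, 0 passed at 0, 2 or 6 h. Of all probe sets 0.0108% were higher and 0.0216% lower at 0 h, and 0% at 2 h and 6 h. The lowest adjusted p among the 31 was 0.933 at 0 h, 0.899 at 2 h and 0.446 at 6 h. At an unadjusted p under 0.05 there were 3, 0 and 2 genes, where 4.64%, 5.48% and 8.69% of all probe sets had such a p. The rank difference method of the study, rebuilt and run at a false discovery rate of 10%, also selected none of the 31 at any of these hours. Its share over all probe sets is not given here, so that is not read as a result about the 31 genes. The unadjusted 95% interval of a difference reached a median of 0.34 log2 units to either side over the 31 genes, so a p that missed the threshold does not show that the strains were alike.

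The genes nearest to a difference were few. At 0 h they were SCS7, with 1184.1 and 1327.1 in MU against 1607.6 and 1443.5 in WT (-0.30, 95% interval -0.52 to -0.07, adjusted p = 0.933), and SUR2, with 338.7 and 350.9 in MU against 387.8 and 375.7 in WT (-0.16, 95% interval -0.30 to -0.02, adjusted p = 1). At 2 h they were LCB1, with 1214.1 and 1322.5 in MU against 1613.0 and 1422.4 in WT (-0.25, 95% interval -0.55 to 0.04, adjusted p = 0.899), and LCB2, with 2097.5 and 2069.3 in MU against 2069.9 and 1803.5 in WT (0.12, 95% interval -0.06 to 0.29, adjusted p = 0.938). At 6 h they were KEI1, with 141.7 and 131.0 in MU against 242.6 and 181.9 in WT (-0.62, 95% interval -1.03 to -0.21, adjusted p = 0.446), and SUR2, with 293.8 and 306.4 in MU against 357.1 and 337.1 in WT (-0.21, 95% interval -0.35 to -0.07, adjusted p = 0.446). MU arrays lay below WT arrays in each of these but LCB2, where they overlapped. SUR2 was named at 0 h and 6 h, and its difference at 2 h was 0.06 (95% interval -0.08 to 0.20).

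**Figure D4:**
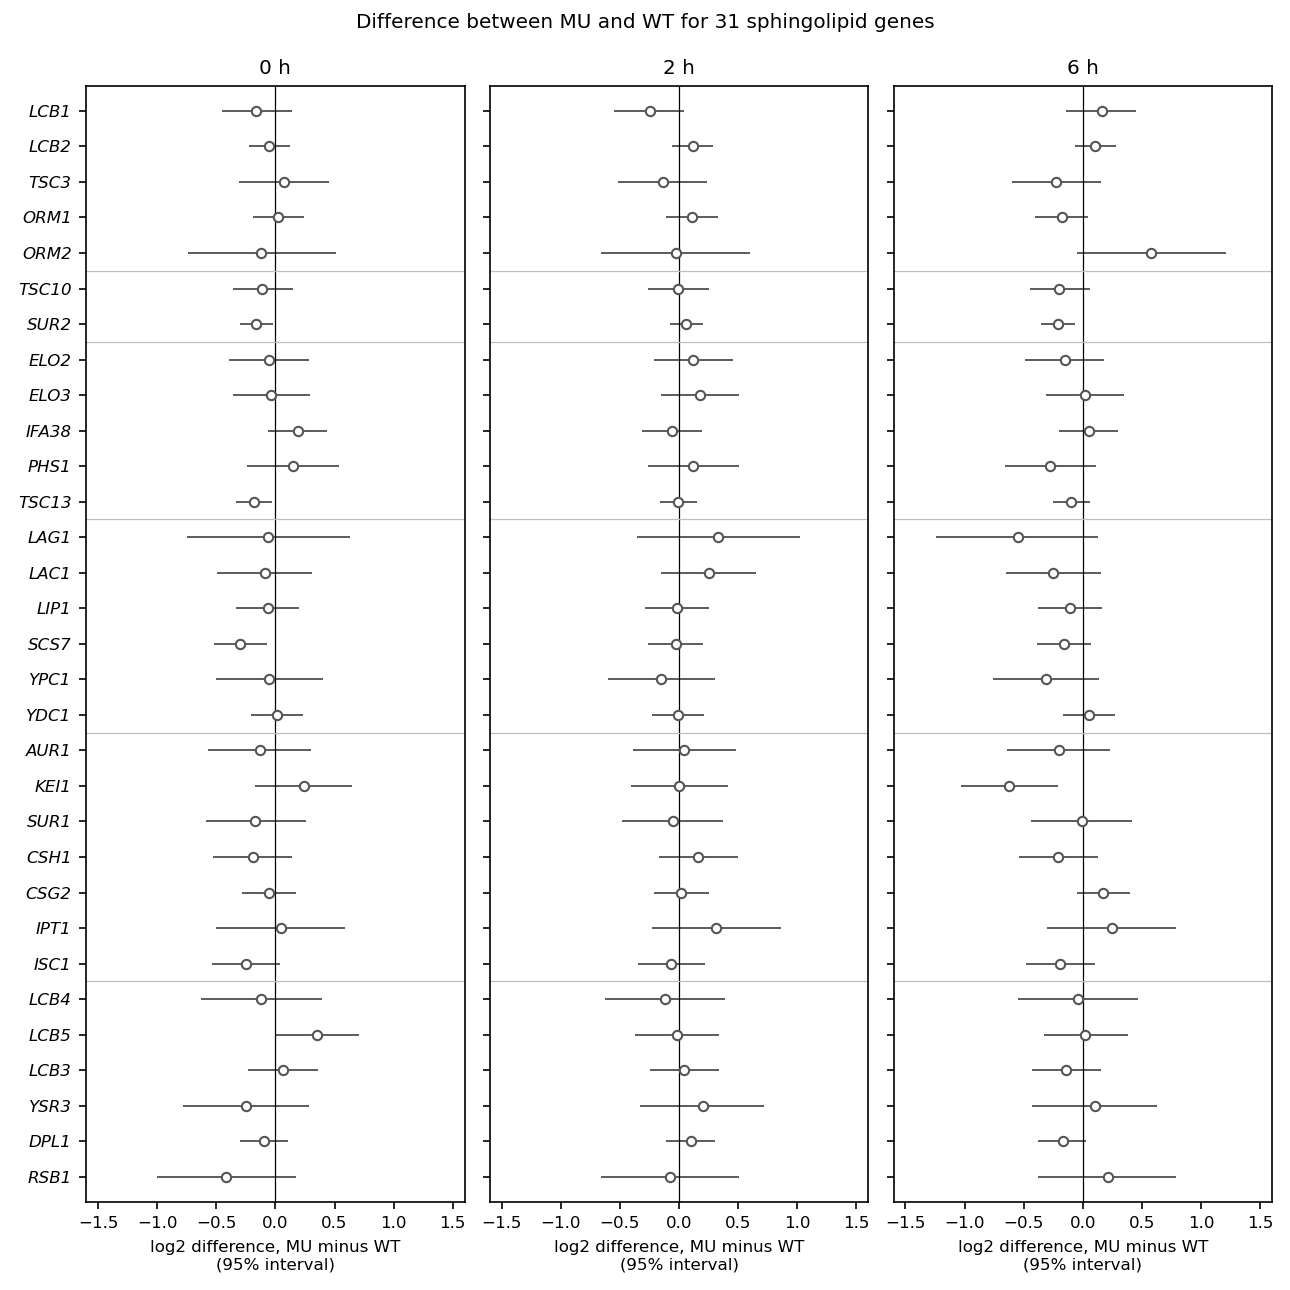
Log2 difference between MU and WT for each of the 31 genes at 0, 2 and 6 h, with its 95% interval as a line and open points for an adjusted p of 0.05 or more. All points are open, the widest difference to the left is KEI1 at 6 h (-0.62) and the widest to the right is ORM2 at 6 h (0.58).

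The differences between the strains' changes gave no call either, with 0 of 31 at 2 h and 0 of 31 at 6 h, and 0% of all probe sets at both. In limma, 1 of the 31 had an unadjusted p under 0.05 at each hour, against 4.12% of all probe sets at 2 h and 5.02% at 6 h. At 2 h the lowest p values were those of SUR2, given above, and SCS7, whose change in MU exceeded that in WT by 0.26 (95% interval -0.06 to 0.58, adjusted p = 1). At 6 h they were those of KEI1, given above, and ORM2, whose change in MU exceeded that in WT by 0.70 (SE 0.38, 95% interval -0.19 to 1.59, adjusted p = 0.951). These intervals were wider, with a median of 0.47 log2 units to either side.

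The kinase genes upstream of the pathway were counted in the same way. Of 16 genes for TORC2, its Slm adaptors and the Pkh, Ypk and Fpk kinases, all were measured, 0 were called in MU at 2 h and 1 at 6 h (TOR2, 0.63 above its low 0 h arrays, SE 0.18, adjusted p = 0.0426), and in WT 1 at 2 h (YPK2, 1.04, adjusted p = 0.0425) and 2 at 6 h (YPK2, 1.07, adjusted p = 0.0216, and the TORC2 subunit AVO2, 1.14, adjusted p = 0.027). All of these were higher after the shift, none of the 16 was called lower, and none was called between MU and WT. AVO2 and YPK2 were dim on the WT arrays, at 8 to 25.8 and 24.3 to 69, where the median signal per array was 72 to 75.8. Among all probe sets, 4.88% were higher in MU and 5.38% in WT at 2 h, and 10.8% and 9.83% at 6 h. The shares lower were 3.11% in MU and 3.28% in WT at 2 h, and 11.4% and 9.55% at 6 h. Counts this small in 16 genes do not set the list apart from all probe sets. The median change of the 16 at 6 h was 0.29 in MU and 0.35 in WT, where the medians over all probe sets were -0.06 and -0.04. YPK1, the kinase that phosphorylates the Orm proteins, changed by 0.46 in MU (adjusted p = 0.153) and -0.10 in WT (adjusted p = 0.795) at 6 h.

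Of 20 genes that supply, carry or respond to sphingolipids, all were measured. HFD1, the aldehyde dehydrogenase that takes up the product of the DPL1 lyase, was higher in all 4 comparisons, by 0.78 at 2 h and 1.29 at 6 h in MU (SE 0.14 each, adjusted p = 0.0177 and 0.00101) and by 0.91 and 1.18 in WT (SE 0.14 each, adjusted p = 0.0091 and 0.00165). In MU 1 of the 20 was higher and 0 lower at 2 h, and 3 were higher (FAA1, HFD1, TPD3) and 3 lower (CWH43, FAT1, SVF1) at 6 h. In WT 2 were higher (FAA1, HFD1) and 2 lower (CWH43, SVF1) at 2 h, and 2 higher (FAA1, HFD1) and 2 lower (CKA1, SVF1) at 6 h. Of all probe sets, 4.88% were higher and 3.11% lower in MU at 2 h, and 5.38% and 3.28% in WT at 2 h. At 6 h these shares were 10.8% and 11.4% in MU, and 9.83% and 9.55% in WT. Such counts in 20 genes do not set the list apart from all probe sets. FAA1 activates long-chain fatty acids. CWH43 puts ceramide into the lipid anchors of membrane proteins. None of the 20 was called between MU and WT.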

How the data were processed

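Total RNA of the 12 cultures was hybridised to Affymetrix S98 arrays. The authors computed signals with MAS 5.0 and processed them further, and the deposited values are linear intensities with nearly the same distribution on every array. How that was done is not stated in the paper or labels used here. Arrays were assigned from the sample labels. Log2 intensities of 9275 probe sets (60 control sets left out) were quantile-normalized and fitted with limma 3.58.1 in R 4.3.3, with 6 group means, a variance trend and 6 residual degrees of freedom, with Benjamini-Hochberg adjustment over all probe sets in each of 9 comparisons and 2 differences of changes. Per-array signals are printed as deposited, and changes come from the fit. Probe sets were named from the platform annotation, and all 31 genes have a locus tag in the R64 gene table through their Entrez ID. The genes, lists, named genes and tests were chosen with earlier results of these data known. Every one of the 31 genes is named. Full values went to the up to 5 largest called changes of a comparison, the 2 lowest p values where none was called, the TORC2-linked genes and the paralogue pairs, and the other called genes were added. The letters A and B showed little shared effect: over 15 pairs of groups, the A minus B differences correlated at -0.104 to 0.119, with 1 above 0.1. Whether cultures with the same letter were handled together is not stated in the paper or labels used here. Settings tried were median scaling, an offset of 16, the dimmest 25% left out, no variance trend, only the arrays compared, a replicate block, each array left out in turn, and rank difference analysis (windows of 100, steps of 30, smoothing share 0.3, 100000 null points). The fit and the rank analysis were tested on simulated data.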

Additional observations from a re-analysis of the deposited data

How the results depend on the processing

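The 27 called changes of single genes were recomputed under 18 settings of the limma fit. Of these 486 values, 377 stayed past the threshold, 109 did not, and 0 changed sign. The 6 changes kept under every setting were those of RSB1 and YDC1 in both strains at 6 h, LCB2 in WT at 6 h and KEI1 in MU at 6 h. Fitting only the arrays compared, which leaves 4 arrays a fit, gave 0 called genes of the 31 in MU at 2 h (3 in the full fit), 4 in MU at 6 h (10), 0 in MU at 6 h against 2 h (1), 0 in WT at 2 h (5) and 4 in WT at 6 h (8). Over all probe sets that setting called 88 in MU at 2 h and 51 in WT at 2 h, against 741 and 803 in the full fit. At 6 h it called 579 in MU and 675 in WT, against 2057 and 1798. Rank difference analysis at a false discovery rate of 10% gave 5 genes in MU at 2 h, where LCB5, SCS7 and YPC1 were added and SUR2 was not selected, 6 in MU at 6 h, where ORM2 was added and CSH1, DPL1, LCB2, SUR2 and TSC10 were not selected, and 0 in MU at 6 h against 2 h. In WT it gave 4 at 2 h, without LCB2, and 7 at 6 h, without DPL1 and TSC10 and with IPT1 added. The counts of rank difference analysis over all probe sets are not given here, so these describe the 31 genes only. For MU at 6 h against 2 h, leaving out the dimmest 25% gave 3, adding AUR1 and KEI1, and no variance trend gave 0. Over all probe sets these settings called 248 and 24, against 58 in the full fit. Leaving out 1 array gave 2 to 5 in MU at 2 h, 4 to 11 in MU at 6 h, 0 to 3 in MU at 6 h against 2 h, 3 to 5 in WT at 2 h and 4 to 9 in WT at 6 h. In the comparisons of MU with WT and in WT at 6 h against 2 h, 0 of the 31 genes were called under every setting, and in the differences of changes 0 under every limma setting, since rank difference analysis was not run on these. With the letters A and B as a replicate block, 8 genes were called in MU at 6 h, without SUR2 (adjusted p = 0.0601) and CSH1 (0.0549), and the other counts did not change. Using every probe set of a gene was not run, since each of the 31 genes has 1. In the comparisons where the counts of the 31 genes moved, the number called over all probe sets moved between settings too, also when 1 array was left out. The causes of these shifts were not tested. Each group held 2 cultures, which limits the precision of every value.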
